A study of Mus musculus with 10 samples.

Results

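The 10 genes described here encode the MHC class II presentation pathway of the mouse and its main regulator. They were chosen by name: the classical chains H2-Aa, H2-Ab1 and H2-Eb1, the invariant chain Cd74, the peptide exchange chains H2-DMa, H2-DMb1 and H2-DMb2, the H2-O chains H2-Oa and H2-Ob, and the transcriptional coactivator Ciita. All 10 were found among the 52636 genes of the count table, and all 10 were among the 13469 genes abundant enough to test, with at least 50 counts in every library. Nonclassical monocytes, the patrolling monocyte subset, had been sorted from bone marrow of LAIR1KO mice (genotype LAIR1-/-, without the collagen-binding inhibitory receptor LAIR1) and of WT mice (LAIR1+/+), with no treatment, and RNA of the sorted cells was sequenced from a low-input preparation. There were 5 libraries per genotype, with total counts from 12106209 to 15356924. The labels state neither age, sex and strain of the mice nor the kind of Lair1 allele, nor whether each library came from 1 animal. The p-values therefore cover library-to-library spread, which may be technical.

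MHC class II molecules are heterodimers that carry peptides from endosomes to the cell surface, where helper T cells read them. The invariant chain fills the groove of newly made heterodimers and guides them to endosomes, H2-M exchanges its remnant for peptide, and H2-O inhibits H2-M. In most cells the level of the classical chains, the invariant chain and the H2-M chains is set largely by CIITA. CIITA binds no DNA itself and acts through factors assembled on an upstream module made of an S box, an X box and a Y box. Monocytes carry little MHC class II compared with dendritic cells and B cells, which express it constitutively.

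Part of that module can be read in the promoter windows of the members. RefSeq windows on GRCm38.p6, from 250 bases before to 50 bases after a gene start, were available for 7 of the 10 members, and 6 of these hold the Y box letters TGATTGG on the gene's strand. The stretches around it are shown for H2-Eb1, H2-DMb1, H2-DMb2 and H2-Oa, 5′ to 3′ on the plus strand of chromosome 17. These stretches hold the X box letters upstream of TGATTGG in H2-Eb1, H2-DMb1 and H2-DMb2 but not in H2-Oa. They lie at chr17:34305761-34305830, chr17:34153083-34153152, chr17:34145112-34145181 and chr17:34092289-34092358. Capitals mark TGATTGG and, upstream of it, the letters AACNNATG from the X box.
H2-Eb1: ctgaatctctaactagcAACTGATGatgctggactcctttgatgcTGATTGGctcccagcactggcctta
H2-DMb1: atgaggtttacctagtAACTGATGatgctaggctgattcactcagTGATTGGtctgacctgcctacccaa
H2-DMb2: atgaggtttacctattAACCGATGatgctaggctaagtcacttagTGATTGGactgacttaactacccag
H2-Oa: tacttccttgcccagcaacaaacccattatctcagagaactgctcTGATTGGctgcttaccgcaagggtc

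The whole windows of H2-Aa (chr17:34287774-34288073, minus strand) and H2-Ob (chr17:34238655-34238954, plus strand) are shown because these genes lie at the ends of the range of changes given below. Capitals mark the same letters and, in H2-Aa, the palindrome TGACGTCA of cyclic AMP response elements, which CREB factors bind.
H2-Aa: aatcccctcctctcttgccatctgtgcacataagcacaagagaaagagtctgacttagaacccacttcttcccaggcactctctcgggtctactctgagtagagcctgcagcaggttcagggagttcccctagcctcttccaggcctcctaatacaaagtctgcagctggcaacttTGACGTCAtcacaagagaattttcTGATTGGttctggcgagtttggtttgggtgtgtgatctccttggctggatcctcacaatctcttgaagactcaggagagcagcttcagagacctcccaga
H2-Ob: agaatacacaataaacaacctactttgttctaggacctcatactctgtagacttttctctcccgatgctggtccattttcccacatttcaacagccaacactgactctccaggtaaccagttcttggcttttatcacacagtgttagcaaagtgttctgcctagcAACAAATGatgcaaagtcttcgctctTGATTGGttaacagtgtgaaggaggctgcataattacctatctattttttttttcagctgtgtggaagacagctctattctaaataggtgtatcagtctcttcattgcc

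AACNNATG followed by TGATTGG on the gene's strand, with 10 to 40 bases between them, occurred in 4 members, with gaps of 20 bases in H2-Eb1, 21 in H2-DMb1, 21 in H2-DMb2 and 18 in H2-Ob. Of all 32851 promoter windows, 0.0396% hold that pair. Searched on both strands, TGATTGG alone was in 7.82% of windows, AACNNATG alone in 8.86% and TGACGTCA in 1.79%. The letters were chosen with these windows in view, none of the 3 motifs overlaps another in the windows shown, and a match is a description of the letters only. The 2 windows of H2-DMa hold none of the 3 motifs.

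Lair1 itself checked the labels. Its counts were 3, 10, 4, 0 and 0 in the LAIR1KO libraries and 4230 to 5579 in the WT libraries, so every library matched its genotype. Across all tested genes, 1.68% were called lower and 5.11% higher in LAIR1KO by edgeR's quasi-likelihood test at an adjusted p under 0.05 (adjusted over all tested genes). In both directions together 6.79% were called. Of these calls 75.3% were higher under TMM scaling. Scaling by library totals made that share 90.1% and moved the median change of all genes to 0.13 on the log2 scale. DESeq2 called 510 genes lower and 1006 higher, and limma with library quality weights called 260 lower and 725 higher. Counts at an unadjusted p under 0.05, given below for lists, have no share of all tested genes beside them and are a description only. The 12 nonclassical monocyte markers, such as Nr4a1 and Cx3cr1, were detected in both groups and summed to 8212 to 11632 CPM in LAIR1KO and 10831 to 13421 CPM in WT. Of these 12, 0 were called by edgeR, DESeq2 or limma with all 10 libraries and 4 were lower at an unadjusted edgeR p under 0.05. Their median log2 fold change was -0.26, and the lowest sums were in LAIR1KO replicates 5 and 4 (8212 and 8582 CPM). Without LAIR1KO replicate 3, Nr4a1 and Gngt2 were called lower (edgeR adjusted p = 0.0228 and 0.0170), in a fit that called 381 genes lower.

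Of the 10 MHC class II genes, 7 were lower in LAIR1KO and 0 higher, against a background of 1.68% of tested genes called lower. The 3 classical chains fell to 30.1% to 30.2% of their WT mean, Ciita to 33.6%, Cd74 to 42.4%, H2-DMb1 to 45.7% and H2-DMa to 62.1%. H2-DMb2, H2-Oa and H2-Ob did not pass. Tested against a fold of 1.5, H2-Aa, H2-Ab1 and H2-Eb1 passed as lower, as did 0.186% of tested genes. In 6 members every LAIR1KO library lay below every WT library, which held for 2.06% of all tested genes. All 10 log2 fold changes (LAIR1KO minus WT) were below 0 with TMM scaling, with a median of -1.18 over the members and of -0.00181 over all tested genes; with library totals H2-Ob alone turned to 0.00448, above 0. In RNA of sorted cells, fewer cells that carry MHC class II and less of its RNA per cell cannot be told apart.

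**Figure D1:**
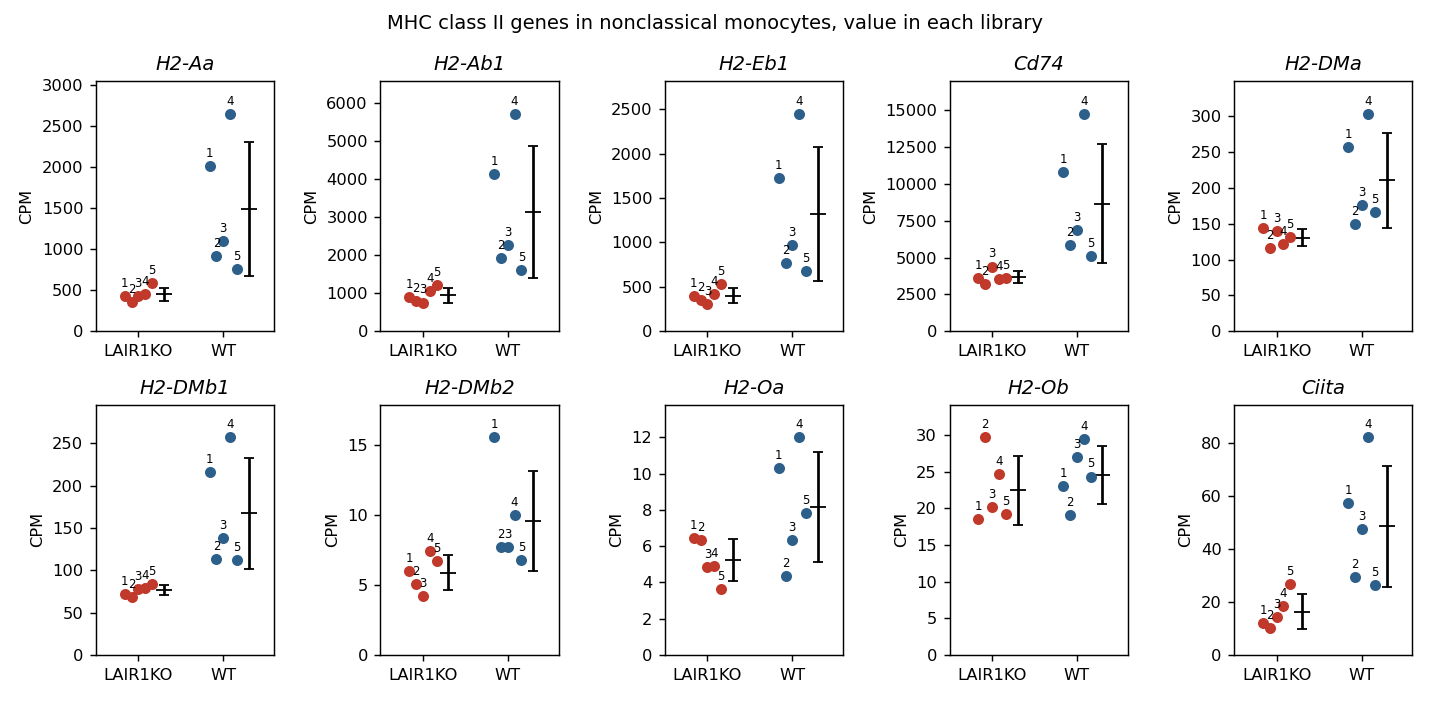
Normalised expression (CPM, counts scaled to TMM library sizes; axes start at 0) of each gene in the 5 LAIR1KO and 5 WT libraries. Points are libraries labelled by replicate number and black marks are the mean ± SD; WT 1 and WT 4 stand highest for the classical chains, Cd74, H2-DMa, H2-DMb1 and Ciita, and only H2-DMb2, H2-Oa, H2-Ob and Ciita overlap between the groups.

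The classical chains form the peptide-binding molecules at the surface: H2-Aa and H2-Ab1 encode the alpha and beta chain of I-A, and H2-Eb1 the beta chain of I-E. H2-Aa (GRCm38 chromosome 17, 34282744 to 34287823, minus strand) had 428, 353, 424, 447 and 584 CPM in LAIR1KO replicates 1 to 5, against 2013, 921, 1098, 2648 and 755 CPM in WT replicates 1 to 5. The groups did not overlap, and WT replicates 1 and 4 stood far above the other WT libraries. H2-Aa averaged 447 ± 84.6 CPM in LAIR1KO and 1487 ± 811 CPM in WT (SD, n = 5 each), a log2 fold change of -1.73 ± 0.30 (SE; edgeR adjusted p = 0.00485).

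H2-Ab1 (chromosome 17, 34257689 to 34269419, plus strand) had 910.3, 789, 755, 1062 and 1226 CPM in LAIR1KO, against 4146, 1925, 2265, 5726 and 1623 CPM in WT. Its log2 fold change was -1.73 ± 0.31 (edgeR adjusted p = 0.00537), with no overlap between the groups. H2-Eb1 (chromosome 17, 34305867 to 34316674, plus strand) had 395, 346, 305, 416 and 526 CPM in LAIR1KO, against 1727, 769, 974, 2449 and 682 CPM in WT. Its log2 fold change was -1.73 ± 0.32 (edgeR adjusted p = 0.00599), again with no overlap. The gene of its partner, the I-E alpha chain (H2-Ea-ps), which mice of the H-2b haplotype do not transcribe, had 0 counts in all 10 libraries. At a limit of 3 counts per library this allows up to 0.192 to 0.252 CPM.

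The proportions of the 3 classical chains within a library varied more between LAIR1KO than between WT libraries. H2-Ab1 stood at 1.78 to 2.37 times the CPM of H2-Aa in LAIR1KO and at 2.06 to 2.16 times in WT. H2-Eb1 stood at 0.721 to 0.981 times H2-Aa in LAIR1KO and 0.835 to 0.925 times in WT. The lowest value of both ratios was in LAIR1KO replicate 3.

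Cd74, the invariant chain (chromosome 18, 60803848 to 60812652, plus strand), was the most abundant member, taking 0.342% to 0.431% of all counts of a LAIR1KO library and 0.493% to 1.399% of those of a WT library. It had 3601, 3219.7, 4393, 3542 and 3634 CPM in LAIR1KO, against 10790.1, 5821, 6845, 14774 and 5105 CPM in WT. The groups did not overlap, and the LAIR1KO libraries lay close together. The mean was 3678 ± 432 CPM in LAIR1KO and 8667 ± 4059 CPM in WT (SD, n = 5 each), with a log2 fold change of -1.24 ± 0.25 (edgeR adjusted p = 0.0101). Without LAIR1KO replicates 4 and 5 together the value was -1.21 and did not pass (edgeR adjusted p = 0.0667).

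The H2-M chains form the exchange factor that loads peptide in endosomes. H2-DMb1 (chromosome 17, 34153072 to 34160230, plus strand), a beta chain, had 72.4, 68.9, 78.0, 79.4 and 83.7 CPM in LAIR1KO, against 215, 113, 138, 257 and 112 CPM in WT. All LAIR1KO libraries were below all WT libraries, and the log2 fold change was -1.13 ± 0.21 (edgeR adjusted p = 0.00714). H2-DMa (chromosome 17, 34119541 to 34139101, plus strand), the alpha chain, had 144.5, 116, 140.4, 121 and 132 CPM in LAIR1KO, against 257, 149, 176, 304 and 167 CPM in WT.

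The log2 fold change of H2-DMa was -0.69 ± 0.18 (edgeR adjusted p = 0.0354), with no overlap. Its call was lost in 5 of the 10 fits that left out 1 library, those without WT replicate 1 or 4 or LAIR1KO replicate 2, 4 or 5 (edgeR adjusted p = 0.0700 to 0.0880), and with library totals (edgeR adjusted p = 0.0587). Exons of the antisense neighbour Brd2, a chromatin reader, overlap 10.4% of the exon length of H2-DMa, and Brd2 had a log2 fold change of -0.10 ± 0.11 (edgeR adjusted p = 0.652). The strand setting of the counting is not given, so reads of that stretch could not be assigned to one of these genes.

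H2-DMb2 (chromosome 17, 34143307 to 34151555, plus strand), the second beta chain, was far less abundant, with 6.01, 5.04, 4.24, 7.40 and 6.74 CPM in LAIR1KO, against 15.6, 7.74, 7.73, 10.003 and 6.82 CPM in WT. Only LAIR1KO replicate 4 lay within the WT range. The log2 fold change was -0.70 ± 0.25 and did not pass (edgeR adjusted p = 0.120). H2-DMb1 and H2-DMb2 are near-identical in part: 22.7% of the 50-base words in transcripts of H2-DMb1 and 25.9% of those of H2-DMb2 also occur in another gene, 369 of them in both of this pair, so reads could be split between them. For H2-Ab1, H2-Eb1, Cd74 and H2-Ob no such word was shared with another gene, and for H2-Aa 0.514% were.

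H2-Oa and H2-Ob encode the chains of H2-O, the inhibitor of H2-M that is best known from B cells. H2-Oa (chromosome 17, 34092340 to 34095234, plus strand) had 6.45, 6.32, 4.84, 4.91 and 3.62 CPM in LAIR1KO, against 10.3, 4.38, 6.32, 12.0 and 7.82 CPM in WT. The groups overlapped, and the log2 fold change was -0.64 ± 0.27 (edgeR adjusted p = 0.192). H2-Ob (chromosome 17, 34238903 to 34254414, plus strand) had 18.5, 29.7, 20.2, 24.7 and 19.3 CPM in LAIR1KO, against 23.0, 19.1, 27.0, 29.5 and 24.3 CPM in WT.

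The highest H2-Ob value of all 10 libraries was in LAIR1KO replicate 2, and the group ranges nearly coincided. Its log2 fold change was -0.13 ± 0.17 (edgeR adjusted p = 0.698). An antisense gene overlaps 22.8% of the exon length of H2-Oa, with a mean of 1.1 counts per library, and H2-Oa has 91.6.

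Ciita (chromosome 16, 10480059 to 10528418, plus strand), the transcriptional coactivator among the members, was also lower. It had 12.2, 10.1, 14.3, 18.4 and 26.7 CPM in LAIR1KO, against 57.5, 29.4, 47.5, 82.2 and 26.3 CPM in WT. The groups overlapped by 1 library each, LAIR1KO replicate 5 standing just above WT replicate 5. Ciita averaged 16.3 ± 6.57 CPM in LAIR1KO and 48.6 ± 22.8 CPM in WT (SD, n = 5 each), with a log2 fold change of -1.57 ± 0.33 (edgeR adjusted p = 0.0120). Without WT replicates 1 and 4 together it was -1.08 and did not pass (edgeR adjusted p = 0.0935). Exons of the antisense gene Dexi overlap 3.45% of its exon length.

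**Figure D2:**
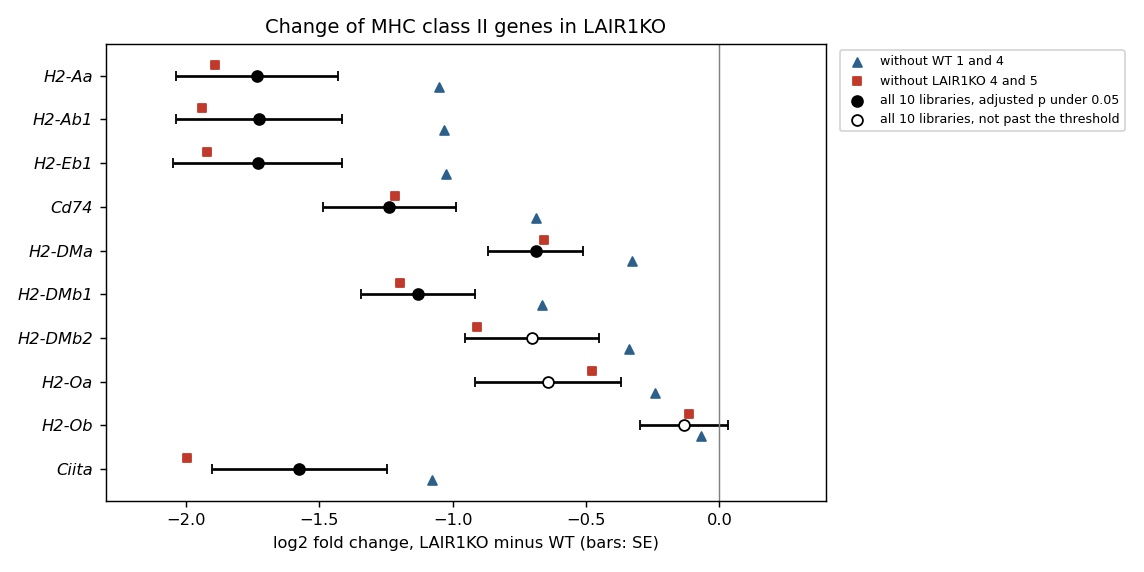
Log2 fold change (LAIR1KO minus WT) of each gene with its SE; filled circles passed the test over all tested genes (adjusted p under 0.05) and open circles did not. Triangles leave out WT replicates 1 and 4 and squares leave out LAIR1KO replicates 4 and 5; without the WT pair the values of H2-Aa, H2-Ab1 and H2-Eb1 were -1.05, -1.03 and -1.02.

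Relative to their mean, 9 members varied more within WT than within LAIR1KO, and H2-Ob less (20.9% in LAIR1KO and 16.04% in WT). WT replicates 1 and 4 were the 2 highest of the 10 libraries for 9 of the 10 members, H2-Ob being the exception, and replicate 4 was the highest for 8. The summed CPM of the 10 genes ran from 4943 to 6243 in LAIR1KO and from 8509 to 26291 in WT. The coefficient of variation of H2-Aa was 18.9% in LAIR1KO and 54.6% in WT, and that of H2-DMb1 was 7.67% in LAIR1KO and 39.2% in WT. Ciita varied in both groups, by 40.2% in LAIR1KO and 46.9% in WT.

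Without WT replicates 1 and 4 together, the classical chains, Cd74 and H2-DMb1 still passed (edgeR adjusted p = 0.0128 to 0.0253), when 0.511% of genes were called lower. Their log2 fold changes shrank to -1.05 for H2-Aa, -1.03 for H2-Ab1, -1.02 for H2-Eb1, -0.69 for Cd74 and -0.67 for H2-DMb1. H2-DMa was then at -0.33 (edgeR adjusted p = 0.167) and the median of the members at -0.68. Without LAIR1KO replicates 4 and 5 together, when 0.996% of genes were called lower, the log2 fold changes of the classical chains were -1.89 to -1.94 (edgeR adjusted p = 0.0232 to 0.0279).

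**Figure D3:**
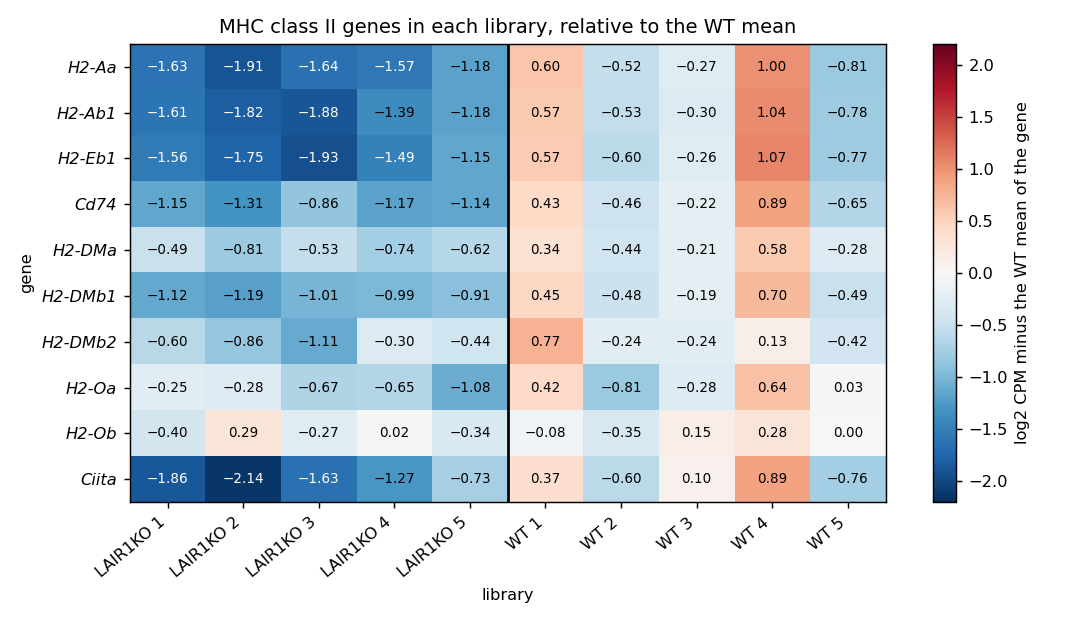
Log2 CPM of each gene in each library minus the gene's mean over the 5 WT libraries; LAIR1KO libraries are left of the black line and WT libraries right of it. Blue is below and red above the WT mean, with the value in each cell; WT 1 and WT 4 are above it for every gene except H2-Ob in WT 1.

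Whether the members changed by unequal factors was tested on ratios within a library, which need no library scaling. Relative to H2-Aa, the genes H2-Ob, H2-Oa, H2-DMa, H2-DMb2, H2-DMb1 and Cd74 were higher in LAIR1KO than in WT, by 0.46 to 1.45 on the log2 scale. H2-Ab1, H2-Eb1 and Ciita showed no shift past the threshold. These calls depend on the gene in the denominator, and H2-Aa is the member with the most negative log2 fold change. Against Cd74 none of the ratios passed (exact permutation test, adjusted p = 0.0571 to 0.381), and the difference of H2-DMb1 was 0.0794, against 0.54 relative to H2-Aa. The mean log2 ratio of H2-Ob to H2-Aa was -4.32 ± 0.50 in LAIR1KO and -5.76 ± 0.68 in WT (SD, n = 5 each), a difference of 1.45 (exact permutation test, two-sided, p = 0.00794; 5 against 5 libraries allow no smaller p; adjusted over 9 ratios 0.0238). The differences were 0.95 for H2-DMa and 0.93 for H2-DMb2, at that same p, and their adjusted p was also 0.0238.

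For H2-Oa the difference was 1.002 and for H2-DMb1 0.54 (both with an exact permutation p = 0.0159, adjusted 0.0286). Cd74 lay at 3.05 ± 0.27 in LAIR1KO and 2.59 ± 0.14 in WT, a difference of 0.46 (exact permutation p = 0.0317, adjusted 0.0476). The calls of Cd74, H2-DMb1 and H2-Oa were each lost in 8 of the 10 fits that left out 1 library (adjusted p up to 0.0714), those without LAIR1KO replicate 5 or WT replicate 5 being the exceptions, and all 6 were lost without WT replicates 1 and 4 together, where the 6 differences were 0.37 to 0.98. Fewer libraries raise the smallest p that a permutation test can reach, so a lost call does not by itself show dependence on the libraries left out.

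The ratio of Ciita to H2-Aa was -4.84 ± 0.31 in LAIR1KO and -4.89 ± 0.23 in WT, a difference of 0.06 (exact permutation p = 0.754, adjusted 0.937). For H2-Ab1 and H2-Eb1 the differences were 0.01 each (exact permutation p = 0.929 and 0.937, both adjusted 0.937). A p that misses the threshold does not show that these factors were equal; leaving out 1 library at a time moved the Ciita difference between -0.0392 and 0.15. With no test, the CPM of H2-DMb1 was 0.501 to 0.656 times that of H2-DMa in LAIR1KO and 0.673 to 0.846 times in WT.

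**Figure D4:**
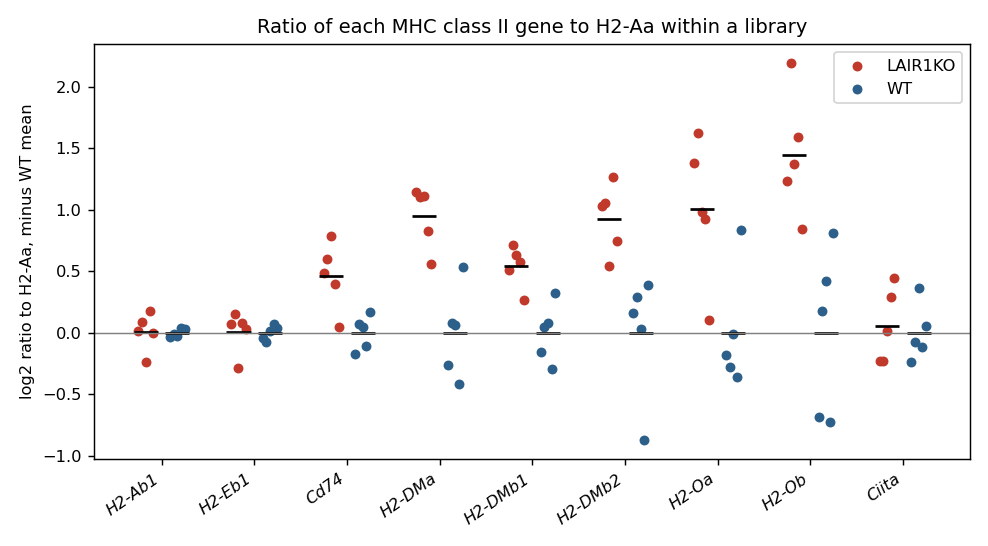
Log2 ratio of the counts of each gene to those of H2-Aa in the same library, minus the WT mean of that ratio; LAIR1KO points stand left of WT points, and black bars are group means. H2-Ab1, H2-Eb1 and Ciita scatter around 0 in both groups, and the mean of H2-Ob lies 1.45 above WT in LAIR1KO.

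Levels between genes were compared per kilobase of exon. In LAIR1KO the order of mean CPM per kilobase was Cd74 (2191 ± 257), H2-Ab1 (369 ± 76.5), H2-Eb1 (205 ± 43.1), H2-Aa (118 ± 22.3), H2-DMb1 (45.5 ± 3.49), H2-DMa (37.9 ± 3.55), H2-Ob (4.17 ± 0.873), H2-Oa (3.72 ± 0.836), H2-DMb2 (3.37 ± 0.726) and Ciita (1.71 ± 0.689; SD, n = 5 each). In WT it was Cd74 (5162 ± 2418), H2-Ab1 (1222 ± 681), H2-Eb1 (679 ± 388), H2-Aa (391 ± 214), H2-DMb1 (99.5 ± 38.9), H2-DMa (61.1 ± 19.3), H2-Oa (5.80 ± 2.16), H2-DMb2 (5.48 ± 2.03), Ciita (5.10 ± 2.39) and H2-Ob (4.57 ± 0.733). The upper 6 kept their order in both groups. In LAIR1KO, neighbours in that order differed by more than either SD except H2-Ob and H2-Oa, and H2-Oa and H2-DMb2. In WT only Cd74 and H2-Ab1, H2-Aa and H2-DMb1, and H2-DMa and H2-Oa did. H2-Ob stood lowest of the members in WT and highest of the lowest 4 in LAIR1KO.

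Of 12 tested genes that encode factors of the class II promoter (the RFX and NF-Y subunits, Creb1 and coactivators), 0 passed by edgeR, DESeq2 or limma, with a median log2 fold change of 0.09; 1 was higher at an unadjusted edgeR p under 0.05. Rfx5, the DNA-binding subunit of RFX, had 16.6 to 24.9995 CPM in LAIR1KO and 13.02 to 16.5 CPM in WT, a log2 fold change of 0.36 ± 0.14 (edgeR adjusted p = 0.167). Crebbp, a histone acetyltransferase, had -0.23 ± 0.13 (edgeR adjusted p = 0.325). Among 18 genes listed as upstream of Ciita or related to it, including the interferon gamma receptor chains, Jak1, Jak2 and Irf1, 0 passed by edgeR (median -0.23). At an unadjusted p under 0.05, 7 were lower, and 3 were called lower by DESeq2 (Il10ra, Spi1 and Tgfbr2). The list also holds Nlrc5 and Zbtb46, both given below. Its genes need not act on Ciita in the same direction, so these values describe the list only. The smallest p-values there were those of Spi1, which encodes the myeloid factor PU.1 (-0.33 ± 0.10, edgeR adjusted p = 0.0849), and Tgfbr2, a TGF-beta receptor chain (-0.25 ± 0.08, edgeR adjusted p = 0.0934). Without LAIR1KO replicate 1, Spi1 was called lower (edgeR adjusted p = 0.0474). Nlrc5, the MHC class I counterpart of Ciita, had 52.2 to 113 CPM in LAIR1KO and 64.6 to 106 CPM in WT, a log2 fold change of -0.00199 ± 0.20 (edgeR adjusted p = 0.998).

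Genes that neighbour the class II genes in the same locus did not pass either with all 10 libraries. Of 7 tested locus genes other than the chains of I-A, I-E and H2-M named above, 0 were called by edgeR (median -0.13). These 7 include the members H2-Oa and H2-Ob. At an unadjusted p under 0.05, 2 were lower, the member H2-Oa and Psmb9, and DESeq2 called Psmb9 lower. The immunoproteasome subunit Psmb9 had -0.31 ± 0.11 (edgeR adjusted p = 0.116). Without LAIR1KO replicate 3, Psmb9 was called lower (edgeR adjusted p = 0.0357). The second I-E beta chain gene, H2-Eb2, was below 1 CPM on average, at 0.0810 ± 0.109 CPM in LAIR1KO and 0.377 ± 0.480 CPM in WT (SD, n = 5 each), and was not tested.

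Endosomal processing genes, which prepare antigen and the invariant chain, fell in part: 4 of 12 were lower and 0 higher (median -0.43). Of all tested genes 1.68% were called lower. DESeq2 and limma with library quality weights each called 7 of 12 lower, adding the cathepsins Ctsd, Ctsh and Ctsz. At an unadjusted edgeR p under 0.05, 10 were lower, a count with no share of all tested genes beside it. Over all tested genes DESeq2 called 510 lower and limma with these weights 260. Lgmn, an asparaginyl endopeptidase, had 222 to 289 CPM in LAIR1KO and 329 to 437 CPM in WT (log2 fold change -0.69 ± 0.10, edgeR adjusted p = 0.00201). Ifi30, the lysosomal thiol reductase GILT, had 45.6 to 76.3 CPM in LAIR1KO and 80.3 to 102 CPM in WT (-0.61 ± 0.14, edgeR adjusted p = 0.0191). Neither gene overlapped between the groups. Ctsc, a dipeptidyl peptidase (-0.60 ± 0.14, edgeR adjusted p = 0.0252), and Ctss, the protease that trims the invariant chain (-0.51 ± 0.13, edgeR adjusted p = 0.0320), lost their calls in 6 and 8 of the 10 fits without 1 library. Ifi30, Ctsc and Ctss also lost them without either pair of libraries named above.

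Of 8 tested traffic and turnover genes 1 was lower and 0 higher (median -0.17), against 1.68% of all tested genes called lower. The lower gene was Cd81, a tetraspanin, with 87.8 to 121 CPM in LAIR1KO and 146 to 232 CPM in WT (-0.84 ± 0.14, edgeR adjusted p = 0.00306). March1, the ubiquitin ligase that removes MHC class II from the surface, had a log2 fold change of -0.12 ± 0.10 (edgeR adjusted p = 0.570). Of 11 tested costimulation and T cell contact genes 0 passed by edgeR or DESeq2 with all 10 libraries. At an unadjusted edgeR p under 0.05, 3 were lower (median of the 11 genes -0.21). The smallest p-values were those of Cd86 (-0.37 ± 0.14, edgeR adjusted p = 0.151) and Cd48 (-0.30 ± 0.12, edgeR adjusted p = 0.177). Without LAIR1KO replicate 3, Cd48 was called lower (edgeR adjusted p = 0.0257).

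**Figure D5:**
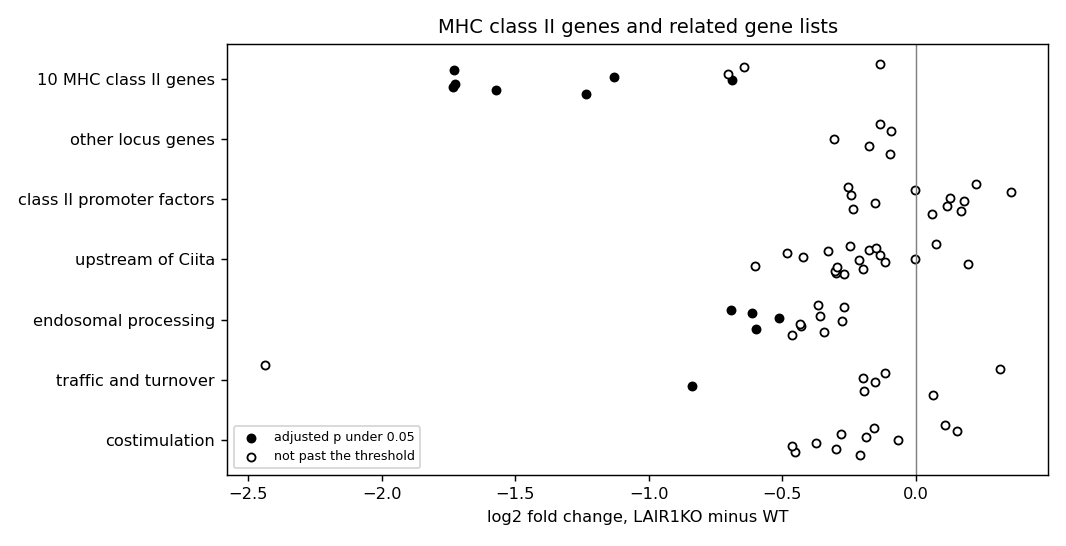
Log2 fold change (LAIR1KO minus WT) of the 10 MHC class II genes and of the tested genes of 6 related lists, 1 point per gene, without the members in the locus list; filled points passed the test over all tested genes (adjusted p under 0.05). Besides the members, filled points occur in endosomal processing (4 of 12) and in traffic and turnover (1 of 8).

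Markers of other cells that carry MHC class II were compared over the same libraries. Of 10 tested resident macrophage markers 7 were lower and 0 higher, against 1.68% of all tested genes called lower. At an unadjusted edgeR p under 0.05, 8 were lower and 1 higher. The summed CPM of the 12 listed was 877 to 1096 in LAIR1KO and 1578 to 2112 in WT. This sum was highest in WT replicates 1 and 4, over a narrower WT range than the class II sum (8509 to 26291 CPM). Of 11 tested dendritic cell markers 2 were lower (Clec9a and Batf3) and 2 higher (Flt3 and Cd24a), and the sum was 163 to 330.5 CPM in LAIR1KO and 210.4 to 407 CPM in WT. Within WT the dendritic cell sum was also highest in replicates 4 and 1 (407 and 294 CPM), against 210.4 to 213 CPM in the other WT libraries. Batf3 lost its call without WT replicate 4 or LAIR1KO replicate 4 (edgeR adjusted p = 0.0526 and 0.0508), Batf3 and Flt3 without either pair, and Cd24a without WT replicates 1 and 4. DESeq2 called 3 higher and 3 lower, adding Ccr7 and Clec10a. Zbtb46, which marks conventional dendritic cells, was at 6.97 ± 1.71 CPM in LAIR1KO and 6.60 ± 1.72 CPM in WT, and Xcr1 at 1.17 ± 0.129 CPM in LAIR1KO and 1.83 ± 0.757 CPM in WT (SD, n = 5 each; edgeR adjusted p = 0.892 and 0.324). Cd209a, a lectin of monocyte-derived dendritic cells, was highest in WT replicates 1 and 4, at 136 and 210.1 CPM, with 34.8 to 100.4 CPM in LAIR1KO and 62.2 to 99.4 CPM in the other WT libraries (-0.82 ± 0.35, edgeR adjusted p = 0.191).

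Of 5 tested plasmacytoid dendritic cell markers 2 were lower (Bst2 and Siglech), against 1.68% of all tested genes called lower. The listed markers summed to 153 to 207 CPM in LAIR1KO and 214 to 294 CPM in WT. The call of Siglech was missed by 6 of 10 leave-one-out fits (WT replicate 2, 4 or 5, or LAIR1KO replicate 1, 4 or 5; edgeR adjusted p = 0.0551 to 0.0831), without either pair or with limma, which called Bst2 alone when library quality weights were used. Of 10 tested B cell markers 0 passed by edgeR or DESeq2 and 1 was lower at an unadjusted edgeR p under 0.05, with sums of 954 to 1424 CPM in LAIR1KO and 999 to 1466 CPM in WT. Nearly all of that was Ighm, while Pax5 was at 0 in at least 5 libraries. The part of these cell types in the class II result was not tested.

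Myeloid progenitor markers were higher in LAIR1KO for 7 of 8 genes, against 5.11% of all tested genes called higher. Their sums were 3126 to 6594 CPM in LAIR1KO and 499 to 1347 CPM in WT. The highest were in LAIR1KO replicates 5 and 4 (6594 and 5248 CPM), the libraries with the lowest nonclassical marker sums. The class II sums of these libraries were not the lowest of LAIR1KO. They were 6243 CPM in replicate 5, the highest of LAIR1KO, and 5723 CPM in replicate 4, against 4943 CPM in replicate 2, the lowest. Of 5 tested classical monocyte markers 2 were higher, among them F13a1 (sums of 879.9 to 1312 CPM in LAIR1KO and 656 to 1131 CPM in WT). Ccr2, a chemokine receptor of classical monocytes, lay the other way, at 423 ± 59.4 CPM in LAIR1KO and 648 ± 187 CPM in WT (SD, n = 5 each; log2 fold change -0.62 ± 0.18, edgeR adjusted p = 0.0588), and DESeq2 called it lower. Neutrophil markers had 0 of 6 called by edgeR or DESeq2 and 1 higher at an unadjusted edgeR p under 0.05 (956 to 1285 CPM in LAIR1KO, 701 to 1317 CPM in WT). Of the T and NK cell markers 1 was tested, Nkg7, which was higher but lost its call without WT replicate 1 or 3, LAIR1KO replicate 5 or either pair, and the sums were 21.1 to 47.2 CPM in LAIR1KO and 6.43 to 21.9 CPM in WT. The part of these lists in the class II result was not tested.

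The genes most like the class II chains were ranked by the Pearson correlation of their log2 CPM with the mean of H2-Aa, H2-Ab1, H2-Eb1 and Cd74, both as deviations from the group mean over the 10 libraries, among 11479 genes. This is a description of the spread within the groups, without a test; the libraries share their sort and their preparation. Among the members, H2-DMb1 reached r = 0.984 with those chains, H2-DMa 0.909, Ciita 0.880, H2-DMb2 0.703, H2-Oa 0.552 and H2-Ob 0.217. Without the libraries farthest from the median of the class II profile, WT replicates 4 and 5, r was 0.965 for H2-DMb1, 0.841 for H2-DMa, 0.779 for Ciita, 0.851 for H2-DMb2, 0.477 for H2-Oa and -0.0579 for H2-Ob.

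Outside the members the most alike genes included Tmem176b (0.978), Isyna1 (0.938), Aif1 (0.925), C1qb (0.915), Clec10a (0.910), Irgm1 (0.908) and Gm43890 (0.905). Tmem176b, a membrane protein of monocytes and dendritic cells, had 90.8 to 142 CPM in LAIR1KO and 151 to 394 CPM in WT (log2 fold change -1.19 ± 0.24, edgeR adjusted p = 0.00967). Aif1, a calcium-binding protein of macrophages, had 18.6 to 23.7 CPM in LAIR1KO and 47.0 to 105 CPM in WT (-1.85 ± 0.22, edgeR adjusted p = 0.000661). Clec10a, a galactose-binding lectin, had 12.99 to 28.1 CPM in LAIR1KO, against 61.5, 23.3, 33.0, 65.7 and 22.8 CPM in WT replicates 1 to 5 (-0.9998 ± 0.31, edgeR adjusted p = 0.0745). Isyna1, an enzyme of inositol synthesis, was higher in LAIR1KO, with 51.4 to 57.8 CPM, against 34.2 to 45.4 CPM in WT (0.49 ± 0.11, edgeR adjusted p = 0.0167).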

How the data were processed

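Reads had been aligned with GSNAP to GRCm38.p5, per the submitters' processing notes. The sources used here do not give the GSNAP version, the counting tool, its annotation or its strand setting. The authors deposited 1 table of raw counts per Ensembl gene, 1 column per library, matched by the identifier in the sample title. Symbols, positions and exon lengths came from GENCODE M21 (GRCm38), which matched 52489 of the 52636 identifiers. Promoter windows came from RefSeq (GRCm38.p6).

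Genes were kept with filterByExpr (minimum count 10, minimum total 15), scaled with TMM and compared by the quasi-likelihood test of edgeR 4.0.16 in R 4.3.3, with Benjamini-Hochberg adjustment over all genes kept. The procedure was also run on simulated counts, drawn independently for each gene and library. They hold no shift shared by a set of libraries, so they do not test the dependence on such sets. Each SE was the log2 fold change divided by the square root of F. Ratios used log2 counts plus 0.5 and an exact permutation test over libraries. Alternatives used DESeq2 1.42.0 and limma 3.58.1, other scalings and filters, and fewer libraries. Chi-square per degree of freedom between replicates was 14.4 to 71.0, so no library repeated another. Within LAIR1KO it was 15.7 between replicates 4 and 5 and 14.4 to 24.1 among replicates 1 to 3. Between these sets it was 28.0 to 71.0, so LAIR1KO replicates 4 and 5 stood apart from the other LAIR1KO libraries. Counts carry no molecular identifiers, so the limit of 3 counts covers counting error only.

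The members and all lists were chosen with earlier results of these data known, and they are not independent evidence. The text names all members, up to 4 called genes with the smallest p from each related list, or 2 where none passed, and the 8 genes with the highest likeness above a mean log2 CPM of 1, of which 1 is not reported here. Genes named beyond this rule (Brd2, Dexi, Nlrc5, March1, H2-Eb2, H2-Ea-ps, Cd209a and other markers) were chosen after their values were seen.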

Additional observations from a re-analysis of the deposited data

How the results depend on the processing

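Of 210 values of the members under the alternatives, 197 kept their direction and their side of the threshold, 12 lost the call and 1 reversed, H2-Ob at 0.00448 with library totals. The 12 losses were those of H2-DMa in 10 fits, of Cd74 without LAIR1KO replicates 4 and 5 and of Ciita without WT replicates 1 and 4. Leaving out 1 library at a time gave 6 to 7 members called, a median of the members of -1.31 to -0.94, and 535 to 1170 changed genes. A test against a fold of 1.5 called 3 members (H2-Aa, H2-Ab1 and H2-Eb1). The median of the members was -0.68 without WT replicates 1 and 4.

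The count of changed genes, 914 in the fit as reported, was 1474 at an adjusted p under 0.1, 1379 with library totals, 1516 with DESeq2 and 142 against a fold of 1.5. It was 338 without WT replicates 1 and 4 together and 376 without LAIR1KO replicates 4 and 5 together. With the replicate number as a block it was 600, and H2-DMa lost its call (edgeR adjusted p = 0.0634). The numbers are not said to pair the libraries: same-number correlations ran from -0.0775 to 0.0466, and 0 of 5 LAIR1KO libraries correlated best with their own number. The cause of these shifts was not tested.

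Without WT replicates 1 and 4 the ratios to H2-Aa differed by 0.37 for Cd74, 0.72 for H2-DMa, 0.39 for H2-DMb1, 0.69 for H2-DMb2, 0.82 for H2-Oa and 0.98 for H2-Ob, none past the threshold (exact permutation test, adjusted p = 0.107 to 0.188), and by -0.0581 for Ciita. The smallest p that the test can reach is larger with fewer libraries. Against Cd74 in place of H2-Aa the differences were 0.49 for H2-DMa, 0.0794 for H2-DMb1, 0.47 for H2-DMb2, 0.54 for H2-Oa, 0.99 for H2-Ob, -0.45 for both H2-Ab1 and H2-Eb1 and -0.40 for Ciita, none past the threshold. Leaving out 1 library gave 0.38 to 0.56 for Cd74, 0.84 to 1.08 for H2-DMa, 0.47 to 0.62 for H2-DMb1, 0.71 to 1.02 for H2-DMb2, 0.85 to 1.23 for H2-Oa, 1.26 to 1.65 for H2-Ob, -0.0354 to 0.0681 for H2-Ab1, -0.0275 to 0.0835 for H2-Eb1 and -0.0392 to 0.15 for Ciita. H2-Oa rests on 50 to 174 counts per library, and the part of depth in its missing call was not tested.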
